A study of Mus musculus with 6 samples.

Results

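The genes described here encode leukocyte surface receptors and adhesion molecules, and were taken by gene name from a mouse PRO-seq table. Symbols beginning with the names of C-type lectins, numbered Cd antigens, immunoglobulin-type receptors, SLAM and Ly antigens, integrins, cadherins, tetraspanins, MS4A proteins, semaphorins, plexins, adhesion and chemoattractant receptors and purinergic receptors were matched, and Cd14, Cd34, Itga2b, Itgam and Fcer1a were left out. This gave 81 members of the 2744 genes in the table. The choice used names only, but the table itself holds only genes whose body reads differed between the groups in the authors' test, so the body values below are a description of a selected set. All 81 members encode membrane proteins; Cd68, Cd63 and Cd74 reside mostly in endosomes and lysosomes.

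PRO-seq counts RNA polymerases engaged in transcription, by adding biotin-tagged nucleotides to growing transcripts in isolated nuclei for 3 min and sequencing what is captured. The cells were bone marrow progenitors labelled cKIT+, from female C57/BL6 mice of the genotype Mllt3 flox/flox Rosa26Cre+. They were transduced with MLLT3 WT (called WT) or with MLLT3 K63E K67E (called DM), sorted, and grown for 8 days in methylcellulose with mSCF, mFlt3L, hEPO, hTPO, mIL-11, mIL-6, mIL-3 and mGMCSF. Both groups also received 4-hydroxytamoxifen at 200 nM, which deletes the endogenous Mllt3, so WT cells are cells with added wild-type protein and not untouched cells. The vector and promoter that carried MLLT3 are not given in the sources used here, and neither is the age of the mice. Each group had 3 libraries, all of batch 1, with totals from 15112853 to 22981603 reads. The labels do not say whether the 3 libraries of a group came from separate mice or cultures, so p-values measure the spread between these libraries, which may be technical.

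Surface receptors are how myeloid cells sense their surroundings. C-type lectins and Fc receptors bind microbial sugars and antibody, chemoattractant receptors bind complement fragments and formylated peptides, and integrins bind matrix and neighbouring cells. Many immunoglobulin-type receptors come as activating and inhibitory relatives encoded side by side. Activating ones signal through adaptors with a tyrosine motif, such as Tyrobp, to the kinase Syk, and inhibitory ones carry a motif that recruits phosphatases. Several of these genes are switched on as progenitors mature into monocytes, macrophages and neutrophils, under transcription factors such as PU.1 and C/EBP proteins.

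Promoters of 4 members are shown because their genes moved in both windows described below and because each gene lies beside another member that moved the same way. In the RefSeq promoter table (GRCm38.p6), 63 members had an entry, and for 45 of them a RefSeq start lay within 50 bp of the deposited start. The 250 bases upstream of the start are given 5′ to 3′ on the gene's strand. Capitals mark GAGGAA, the core of sites that PU.1 binds, and TTGCNNAA, a form of the C/EBP site, each on either strand.
Clec4e, chr6:123289872-123290121, minus strand: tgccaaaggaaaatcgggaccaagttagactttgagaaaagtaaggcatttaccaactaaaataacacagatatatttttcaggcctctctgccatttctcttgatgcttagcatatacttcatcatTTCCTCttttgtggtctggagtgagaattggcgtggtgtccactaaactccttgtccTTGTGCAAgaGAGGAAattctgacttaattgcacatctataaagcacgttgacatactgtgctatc
Clec7a, chr6:129472780-129473029, minus strand: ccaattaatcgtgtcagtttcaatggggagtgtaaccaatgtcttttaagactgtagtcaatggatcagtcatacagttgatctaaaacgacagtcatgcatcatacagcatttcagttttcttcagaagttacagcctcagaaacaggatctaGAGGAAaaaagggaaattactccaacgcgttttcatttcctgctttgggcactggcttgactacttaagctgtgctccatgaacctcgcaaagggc
C5ar1, chr7:16259339-16259588, minus strand: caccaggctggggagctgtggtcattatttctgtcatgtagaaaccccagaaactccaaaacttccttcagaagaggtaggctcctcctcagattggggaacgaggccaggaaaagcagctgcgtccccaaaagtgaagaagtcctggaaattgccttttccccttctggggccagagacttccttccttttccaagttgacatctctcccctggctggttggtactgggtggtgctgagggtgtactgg
Adgrl1, chr8:83899848-83900097, plus strand: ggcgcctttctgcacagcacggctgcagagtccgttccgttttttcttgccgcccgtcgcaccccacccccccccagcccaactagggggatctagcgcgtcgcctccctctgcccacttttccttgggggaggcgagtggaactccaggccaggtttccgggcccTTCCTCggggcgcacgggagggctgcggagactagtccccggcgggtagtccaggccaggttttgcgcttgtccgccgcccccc

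The Clec4e window held GAGGAA on each strand and 1 TTGCNNAA match between them. The Clec7a window held 1 GAGGAA, and the C5ar1 window held neither motif. The Adgrl1 window held 1 GAGGAA, read on the other strand, and no TTGCNNAA. Adgrl1, the only one of the 4 that was lower in DM, had 21 CpG dinucleotides in its window, against 3, 5 and 2 for Clec4e, Clec7a and C5ar1. Over the 34 members with a matched start that were higher in DM, 15 (44.1%) held GAGGAA and 8 (23.5%) held TTGCNNAA. Over the 11 that were lower, 3 (27.3%) held each of these motifs. Of all 32851 promoters in the RefSeq table, 23.3% held GAGGAA and 9.56% held TTGCNNAA. The longer GAGGAAGT contains GAGGAA and so overlaps it. It was in 4 of the 34 (11.8%), in 0 of the 11 and in 2.44% of all promoters. Other patterns were counted too. TGANTCA was in 11.8% of the 34, 18.2% of the 11 and 6.75% of all promoters. In the same order TGTGGT was in 20.6%, 9.09% and 14.05%, and AGATAA in 11.8%, 9.09% and 9.99%. For TATAAA the shares were 11.8%, 9.09% and 12.4%, and for CCAAT 26.5%, 18.2% and 33.85%. The median number of CpG dinucleotides was 5 in the 34, 13 in the 11 and 6 in all promoters. These matches describe letters in a window and were not tested.

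Body reads, those over the transcript beyond the head window described further on, introns included, were higher in DM in 62 members and lower in 19. For all genes tested, 57.4% of 2721 were called higher and 42.6% lower, and the authors' selection sets both shares. In the members 76.5% were higher, the median log2 fold change of DM over WT was 0.96 against 0.37 in all genes, and 37 members (45.7%) rose by at least 1 on the log2 scale against 16.4% of genes. At the other end 7 members (8.64%) were lower by at least 1, beside 10.1% of genes. Summed reads per 1000000 of the library total (RPM) of the 62 higher members went from 2878 ± 247 in WT to 5636 ± 270 in DM, and those of the 19 lower members from 1274 ± 180 to 773 ± 24.2 (SD, n = 3 each). The members held 0.415% ± 0.0339 of the WT libraries and 0.641% ± 0.0246 of the DM libraries (SD, n = 3 each). All genes of the table held 17.1% ± 1.25 and 19.4% ± 0.484 (SD, n = 3 each). These shares are a description, since the body comparison had chosen the rows.

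The libraries of the groups did not overlap in body RPM in 62 higher and 17 lower members; among all genes this share was 56.9% higher and 38.2% lower. Itga3 and Cd63 were the members whose groups overlapped. Log2 fold changes and their standard errors come from edgeR with the authors' size factors, and body p-values are given only where a call changed without a library, since every row had been chosen by that comparison. With TMM scaling on the selected rows, 7 higher members (Cd164, Cd24a, Cd47, Cd74, Itgav, Pirb and Plxnd1) did not pass, and TMM lowered the median log2 fold change of all genes by 0.19. Leaving out 1 library in turn, 13 members missed the threshold at least once. Apart from Itga3, Tspan33 and Cdh2, described below, these were Cd164, Cd24a, Cd47, Cd63, Cd74, Itgav, Pilrb2, Pirb, Plxnd1 and Sema4b, whose edgeR adjusted p then lay between 0.0505 and 0.0814 without WT replicate 2, WT replicate 3 or any DM replicate. The DM libraries resembled one another more than the WT libraries did. The median coefficient of variation of body RPM was 18.2% in WT and 7.04% in DM, and it was larger in WT in 72 of 81 members. For all genes the medians were 14.7% and 6.04%, and it was larger in WT in 2372 of 2744 genes. Because whole cultures were measured, more cells of a receptor-bearing type and more polymerase per cell cannot be told apart.

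**Figure D1:**
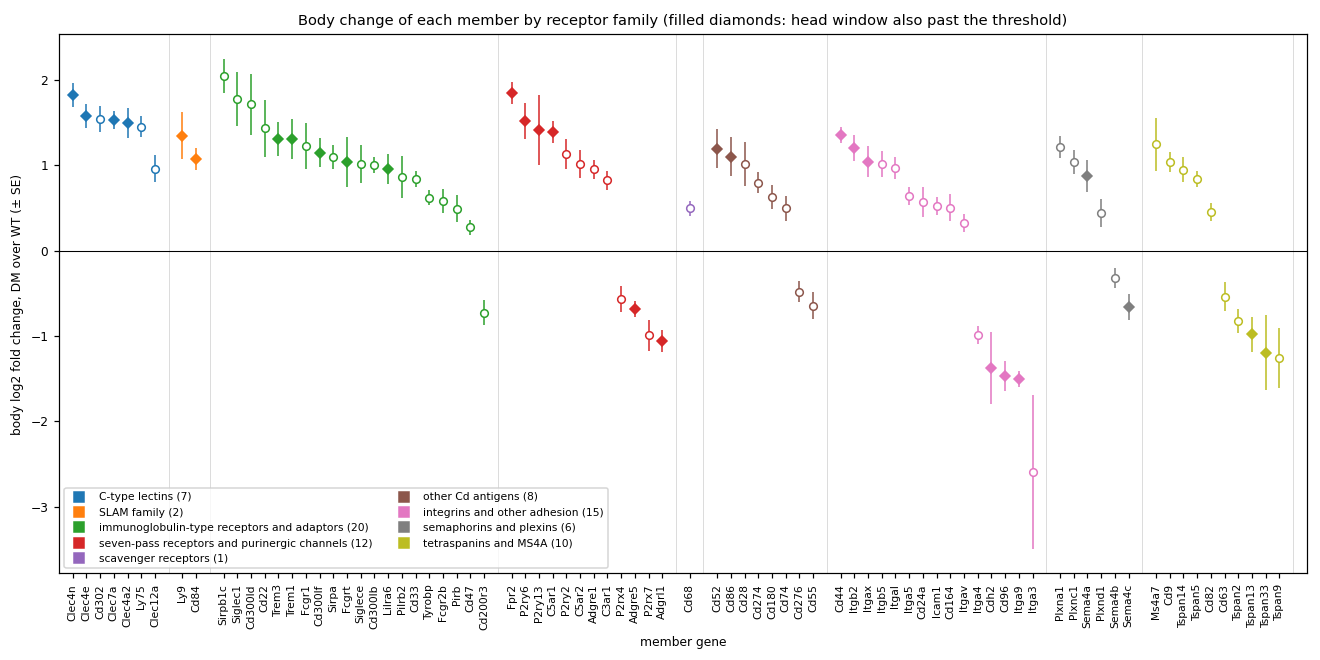
Body log2 fold change, DM over WT (y axis, points with ± SE bars), for each of the 81 members (x axis), grouped and coloured by receptor family; filled diamonds mark members whose head window also passed an adjusted p of 0.05. All 7 C-type lectins and 19 of 20 immunoglobulin-type receptors lie above 0, while the 10 tetraspanins and MS4A genes divide into 5 above and 5 below.

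All 7 C-type lectin genes were higher in DM, with a median body log2 fold change of 1.53, and their summed body RPM went from 103 ± 7.08 to 309 ± 18.9 (SD, n = 3 each). Clec4n (ENSMUSG00000023349.14, chr6:123230018-123247021), which encodes a receptor for fungal mannans, had body RPM of 29.4, 19.3 and 29.0 in WT replicates 1 to 3, against 101, 90.4 and 88.4 in the DM libraries. Its log2 fold change was 1.82 (SE 0.138). Clec4e (ENSMUSG00000030142.10, chr6:123281789-123289870), whose product binds mycobacterial glycolipids, had 9.44, 7.15 and 10.8 in WT against 27.9, 25.9 and 29.5 in DM, with a log2 fold change of 1.58 (SE 0.142). Clec7a (ENSMUSG00000079293.11, chr6:129461591-129472777), the receptor for beta-glucans, had 19.3, 21.4 and 20.8 in WT against 64.3, 56.4 and 60.4 in DM, with a log2 fold change of 1.53 (SE 0.107). In each of these genes every DM library was above every WT library by a wide gap. Clec4a2, an inhibitory lectin, went from 7.79 ± 1.57 to 22.4 ± 2.88, Cd302 from 11.7 ± 2.12 to 34.8 ± 3.33, and Ly75, an endocytic receptor known from dendritic cells, from 17.3 ± 1.07 to 48.0 ± 4.70 body RPM (SD, n = 3 each). Clec12a, an inhibitory lectin, had the smallest log2 fold change of the family, 0.96 (SE 0.158).

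Of 20 immunoglobulin-type receptors and adaptors, 19 were higher in DM and Cd200r3 was lower, with a median body log2 fold change of 1.03. The largest changes were in Sirpb1c, Siglec1 and Cd300ld. Sirpb1c (ENSMUSG00000074677.11, chr3:15795145-15848419), an activating relative of the Cd47 receptor, had 4.79, 3.44 and 5.29 RPM in WT against 21.5, 15.3 and 20.3 in DM, with a log2 fold change of 2.05 (SE 0.198), the highest of all members. Cd300ld, an activating receptor, had 1.26, 1.39 and 2.67 in WT against 7.14, 4.70 and 6.01 in DM (1.72, SE 0.358). Siglec1, a sialic acid-binding adhesion receptor of macrophages, had 1.31, 1.92 and 2.40 in WT against 6.65, 5.39 and 7.66 in DM (1.78, SE 0.318). These 3 genes had low levels in WT. Groups that did not overlap were a condition of naming them. Trem1 and Trem3, which amplify inflammatory signals through Tyrobp, each had a log2 fold change of 1.31, and Fcgr1, the high-affinity IgG receptor, 1.23 (SE 0.272).

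Inhibitory members were higher too. Cd300lf had 117, 166 and 175 RPM in WT against 355, 313 and 370 in DM, with a log2 fold change of 1.15 (SE 0.169). Sirpa, which binds Cd47 and restrains phagocytosis, went from 249 ± 37.5 to 546 ± 29.1, and Cd33 from 64.8 ± 5.50 to 118 ± 5.40 (SD, n = 3 each). Siglece, another inhibitory sialic acid receptor, had a log2 fold change of 1.02 (SE 0.222), Fcgr2b, the inhibitory IgG receptor, 0.58 (SE 0.143), and Pirb, which binds class I molecules, 0.49 (SE 0.160). The adaptor Tyrobp had 31.6, 28.1 and 34.2 RPM in WT against 50.5, 48.5 and 47.9 in DM, and its log2 fold change of 0.62 (SE 0.0859) was smaller than the family's median. Cd47, the ligand of Sirpa, had the smallest rise of all members at 0.27 (SE 0.0894), from 358 ± 16.6 to 442 ± 12.9 RPM. Cd200r3, known from basophils and mast cells, had 257, 172 and 287 RPM in WT against 145, 150 and 142 in DM, with a log2 fold change of -0.73 (SE 0.147). The SLAM family members Cd84 and Ly9, receptors that bind their own kind on neighbouring cells, had log2 fold changes of 1.08 (SE 0.129) and 1.35 (SE 0.275). Cd84 had 58.6, 56.0 and 78.2 RPM in WT against 145, 126 and 143 in DM.

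**Figure D2:**
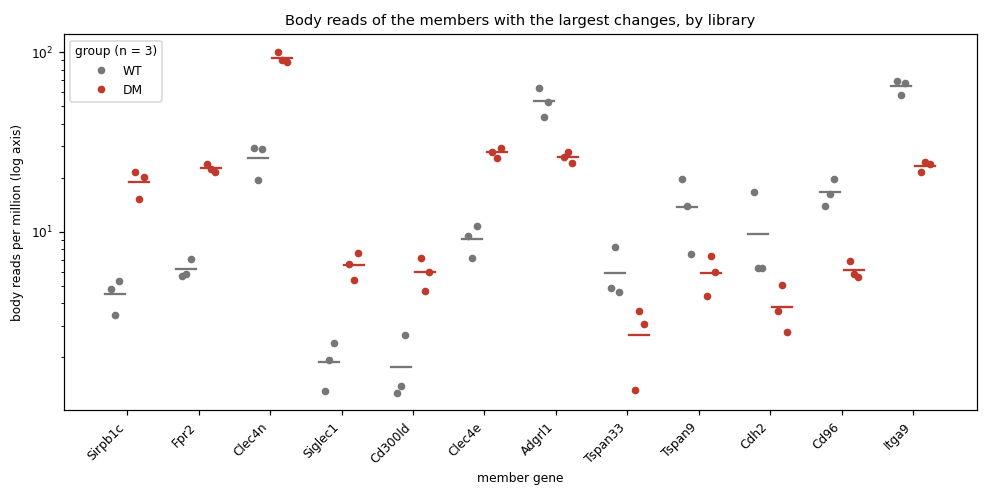
Body reads per 1000000 of the library total (y axis, log scale) in each library for the 6 members with the largest rise and the 6 with the largest fall by the naming rule (x axis); points are libraries, bars are group means, grey is WT and red is DM (n = 3 each). The groups are apart in all 12 genes because the naming rule required it, and WT replicate 1 stands high in Cdh2.

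Seven-pass receptors and purinergic channels had 8 members higher and 4 lower in DM. The 8 were the 3 complement receptors, Fpr2, Adgre1 and the nucleotide receptors P2ry2, P2ry6 and P2ry13. Fpr2 (ENSMUSG00000052270.7, chr17:17887888-17893952), which steers phagocytes toward formylated peptides, had 5.70, 5.82 and 7.04 body RPM in WT against 24.0, 22.5 and 21.6 in DM, with a log2 fold change of 1.85 (SE 0.134). P2ry6, a receptor for UDP, had 8.05, 13.4 and 13.2 in WT against 34.9, 30.1 and 36.2 in DM (1.52, SE 0.210). C5ar1, the main receptor for complement fragment C5a, had 28.5, 21.9 and 22.6 in WT against 71.1, 56.2 and 67.7 in DM (1.39, SE 0.132). In all 3 the lowest DM library was well above the highest WT library. C5ar2 had a log2 fold change of 1.02 (SE 0.169), C3ar1 0.83 (SE 0.112), P2ry13 1.42 (SE 0.407) and Adgre1, the macrophage marker known as F4/80, 0.96 (SE 0.110). The 4 lower members were the ATP-gated channels P2rx7 and P2rx4 and the adhesion receptors Adgrl1 and Adgre5. P2rx4 had 160, 155 and 242 RPM in WT against 123, 132 and 126 in DM, with a log2 fold change of -0.57 (SE 0.153), and WT replicate 3 was the highest library; without it the value was -0.36. P2rx7 had a log2 fold change of -0.99 (SE 0.177). Adgrl1 (ENSMUSG00000013033.16, chr8:83900105-83941954), a latrophilin, had 63.6, 43.5 and 52.6 in WT against 26.1, 27.8 and 24.1 in DM (-1.06, SE 0.124). Adgre5 went from 165 ± 23.3 to 104 ± 1.93 RPM (SD, n = 3 each); it overlaps Ddx39, and whether counting used strand is not given in the sources used here.

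Integrins and other adhesion genes had 10 members higher and 5 lower in DM, with a median body log2 fold change of 0.52. Cd44, the hyaluronan receptor, had 209, 209 and 240 RPM in WT against 608, 539 and 573 in DM, with a log2 fold change of 1.36 (SE 0.0955). Itgb2, the common chain of the leukocyte beta-2 integrins, had 107, 153 and 137 in WT against 316, 299 and 319 in DM (1.20, SE 0.154). Its partner chains Itgax and Itgal were higher as well, by 1.04 (SE 0.182) and 0.97 (SE 0.129), and Icam1, their ligand, by 0.52 (SE 0.104). Itgb5 was higher by 1.02 (SE 0.152), Itga5 by 0.64 (SE 0.101) and Itgav by 0.33 (SE 0.104). The lower members were other alpha chains and adhesion genes. Itga9 (ENSMUSG00000039115.13, chr9:118606690-118901003) had 69.3, 57.8 and 67.3 RPM in WT against 21.4, 24.5 and 23.9 in DM, with a log2 fold change of -1.50 (SE 0.0950). Cd96, a receptor known from T and NK cells that binds nectin-like ligands, had 13.9, 16.3 and 19.6 in WT against 6.92, 5.79 and 5.61 in DM (-1.47, SE 0.179). Itga4, a chain of the receptor for Vcam1, went from 64.9 ± 10.7 to 33.1 ± 0.277 (SD, n = 3 each).

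Cdh2 and Itga3 rested largely on 1 library. Cdh2, N-cadherin, had 16.7, 6.29 and 6.25 RPM in WT against 3.63, 5.05 and 2.75 in DM, with a log2 fold change of -1.37 (SE 0.419); it was -0.76 without WT replicate 1, and it did not pass without DM replicate 3 (edgeR adjusted p 0.0512). Itga3, an integrin chain for laminin that was singled out after its values had been seen, had 18.2, 2.98 and 1.18 in WT against 1.14, 1.68 and 0.901 in DM. Its log2 fold change of -2.59 (SE 0.902) became -0.75 without WT replicate 1 and then did not pass (edgeR adjusted p 0.169), nor did it without DM replicate 1 or DM replicate 3 (0.0627 and 0.0660). WT replicate 1 held 81.4% of the WT RPM of Itga3 and 57.1% of that of Cdh2. It held the larger part of the WT RPM in 5.58% of all genes.

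Tetraspanins and MS4A genes divided evenly, with 5 members higher and 5 lower and a median body log2 fold change of -0.04. Cd9 had 189, 225 and 205 RPM in WT against 459, 400 and 441 in DM, with a log2 fold change of 1.04 (SE 0.120). Tspan14 and Tspan5, which both escort the sheddase Adam10, had log2 fold changes of 0.95 (SE 0.145) and 0.85 (SE 0.0939), Cd82 0.45 (SE 0.109) and Ms4a7 1.25 (SE 0.313). On the lower side Tspan33, a further Adam10 partner, had 4.87, 8.27 and 4.63 RPM in WT against 1.31, 3.61 and 3.05 in DM (-1.20, SE 0.440). It did not pass without WT replicate 2, DM replicate 1 or DM replicate 3 (edgeR adjusted p 0.108, 0.0761 and 0.0551). Tspan9 had 19.7, 13.96 and 7.56 in WT against 4.38, 7.32 and 5.96 in DM (-1.25, SE 0.353). In both genes the nearest WT and DM libraries were close to each other. Tspan2 and Tspan13 had log2 fold changes of -0.82 (SE 0.136) and -0.98 (SE 0.205). Cd63, a tetraspanin of late endosomes and granules, had 53.0, 78.8 and 73.8 RPM in WT against 44.4, 53.2 and 47.2 in DM, so the groups overlapped.

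Semaphorins and plexins, ligands and receptors first described in axon guidance, had 4 members higher and 2 lower. The plexin receptors Plxna1, Plxnc1 and Plxnd1 were higher, Plxna1 from 68.1 ± 9.05 to 161 ± 13.5 RPM and Plxnc1 from 59.6 ± 8.70 to 125 ± 0.969 (SD, n = 3 each). Plxnd1 had 78.5, 116 and 106 in WT against 141, 136 and 140 in DM, with a log2 fold change of 0.44 (SE 0.160), or 0.28 without WT replicate 1. Sema4a had 25.2, 40.9 and 31.5 in WT against 63.0, 61.0 and 58.5 in DM (0.87, SE 0.188). Its relatives moved the other way: Sema4c had 44.9, 49.2 and 68.4 in WT against 32.1, 38.1 and 34.4 in DM (-0.66, SE 0.155), and Sema4b had a log2 fold change of -0.32 (SE 0.113), or -0.21 without WT replicate 2.

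Among the other Cd antigens 6 were higher and 2 lower. Cd52, a small lipid-anchored glycoprotein, had 17.9, 33.9 and 24.0 RPM in WT against 61.2, 57.5 and 59.0 in DM (1.20, SE 0.229). Cd274, the checkpoint ligand of Pdcd1, had 96.0, 87.4 and 126 in WT against 186, 174 and 186 in DM (0.80, SE 0.122). The co-stimulatory ligand Cd86 and the co-stimulatory receptor Cd28 had log2 fold changes of 1.11 (SE 0.224) and 1.01 (SE 0.257), from means of 3.68 and 3.14 RPM in WT. Cd74, the invariant chain of class II molecules, had 18.9, 14.3 and 19.5 in WT against 29.9, 22.6 and 23.2 in DM (0.50, SE 0.145). Cd55, which protects cells from complement, and Cd276, a B7 family protein, were lower by -0.64 (SE 0.156) and -0.48 (SE 0.125).

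Body levels per kilobase ordered the members differently from their changes. By the authors' RPKM averaged over the 6 libraries, the scavenger family's single member Cd68 and the tetraspanin Cd63 were highest. Cd68, a lysosomal glycoprotein of macrophages, had 24.7 ± 2.05 RPKM in WT and 35.5 ± 0.637 in DM, and Cd63 had 24.3 ± 4.86 and 17.1 ± 1.59 (SD, n = 3 each). In WT these 2 genes did not differ beyond their spread. In that average Cd300lf followed with 8.73 ± 1.78 and 19.8 ± 1.71, then Tyrobp with 8.95 ± 0.870 and 14.01 ± 0.382 and Cd33 with 7.55 ± 0.641 and 13.8 ± 0.629 (SD, n = 3 each). The WT levels of these last 3 genes lay within their spread of one another, and Adgre5, at 9.26 ± 1.31 (SD, n = 3), lay among them in WT. The median over members was 1.17 RPKM in WT and 1.77 in DM.

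Head reads lie in a 330 bp window that starts 30 bp upstream of the transcript, where polymerase often pauses, and they were not used to choose the rows, although they come from the same libraries. Of 78 members with enough head reads to test, 21 passed an edgeR adjusted p of 0.05 as higher and 8 as lower. Among all genes tested, 7.63% of 2581 passed as higher and 9.18% as lower, so the count of lower members is near that background. The median head log2 fold change was 0.50 in members and -0.15 in all genes. In the authors' deposited table, each row has a percentile of the head ratio, which is not the head to body ratio tested below. The number of rows ranked, 13408, was inferred from the smallest step between percentiles. The members' median percentile was 93.2 against 56.9 for all genes, and 32 members (39.5%) were at or above the 95th against 15.4%. Head RPM did not overlap between the groups in 35 higher and 10 lower members, and in 18.1% and 23.5% of all genes tested.

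The head calls depended on single libraries. Leaving out WT replicate 2 raised the higher calls to 40, while leaving out WT replicate 3, DM replicate 1, DM replicate 2 or DM replicate 3 gave 10, 0, 10 and 4. Of all genes tested, 23.6% passed as higher without WT replicate 2, and 3.28%, 0.0758%, 2.53% and 1.02% without those 4 libraries. The lower calls were 14 without WT replicate 1 and 2, 0, 2 and 1 without the same 4 libraries, where all genes had 21.8% and then 4.73%, 0.114%, 3.59% and 1.32%. Without DM replicate 1, where edgeR called 0 members, 26 higher and 10 lower members had an unadjusted p under 0.05, against 10.4% and 12.1% of all genes. Clec4n, Clec4a2, Fpr2, P2ry6 and Itga9 passed in 5 of these 6 fits, missing only without DM replicate 1, where their adjusted p ran from 0.0507 to 0.0603. Clec4e, Clec7a, C5ar1, P2ry13 and Sema4a passed in 4, and the other 19 called heads in 1 to 3.

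Higher heads were led by lectins, chemoattractant receptors and nucleotide receptors. Clec4n had head RPM of 2.39, 2.32 and 3.67 in WT against 10.1, 9.89 and 9.46 in DM, a rise of 1.78 on the log2 scale (SE 0.294, edgeR adjusted p 0.00748). Clec4a2 had 0.392, 0.397 and 0.481 in WT against 2.01, 1.73 and 1.90 in DM, from 6 to 46 reads per library (2.11, SE 0.384, edgeR adjusted p 0.00848). Fpr2 had 0.957, 0.331 and 1.35 in WT against 3.68, 3.76 and 4.20 in DM (2.07, SE 0.382, edgeR adjusted p 0.00848). P2ry6 had 0.566, 0.662 and 1.05 in WT against 3.06, 2.67 and 3.00 in DM (1.90, SE 0.355, edgeR adjusted p 0.00848). In all 4 the groups were clearly apart. For Clec4a2 the nearest RefSeq start lay 777 bp from the deposited start, so its head window may miss the promoter. Clec7a, C5ar1 and Clec4e, whose promoters are printed above, had head log2 fold changes of 1.44, 1.53 and 1.41 (edgeR adjusted p 0.0109, 0.0110 and 0.0111). The C5ar1 head had 2.83, 1.06 and 2.23 RPM in WT against 5.30, 5.89 and 6.91 in DM. Sema4a had 1.39, 2.05 and 2.05 in WT against 4.47, 4.35 and 4.95 in DM, and its head change of 1.30 on the log2 scale (SE 0.307, edgeR adjusted p 0.0145) was larger than its body value of 0.87. P2ry13 had 1.5004 (SE 0.363, edgeR adjusted p 0.0163) and Fcgrt, the neonatal Fc receptor, 1.26 (SE 0.308, edgeR adjusted p 0.0168). The 11 further higher heads were those of Itgax, Trem3, Trem1, Cd84, Cd300lf, Cd86, Cd44, Cd52, Ly9, Itgb2 and Lilra6, with log2 fold changes from 0.94 to 1.51 (edgeR adjusted p 0.0250 to 0.0485).

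**Figure D3:**
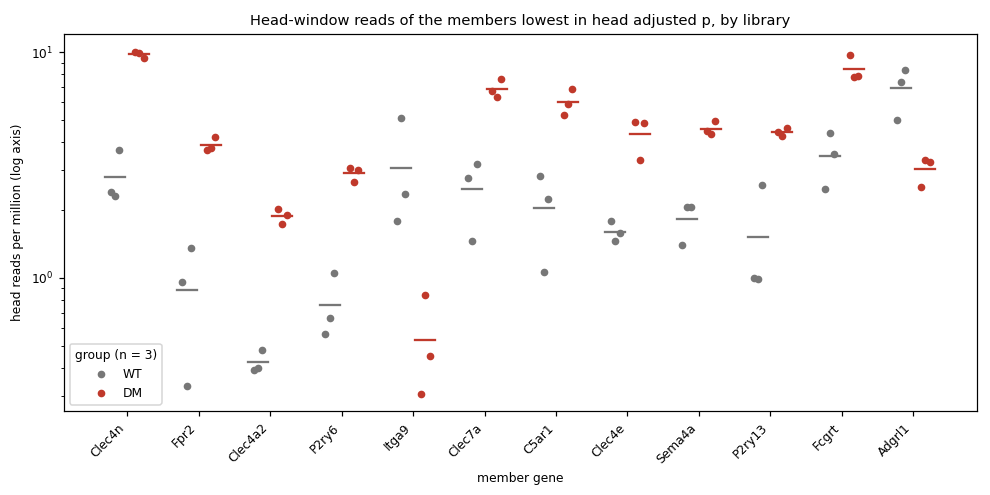
Head reads per 1000000 of the library total (y axis, log scale) in each library for the 12 members with the lowest head adjusted p (x axis); points are libraries, bars are group means, grey is WT and red is DM (n = 3 each). Itga9 and Adgrl1 are lower in DM and the other 10 are higher, with the groups apart in all 12.

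Of the lower heads, Itga9 had 1.78, 5.09 and 2.36 head RPM in WT against 0.306, 0.841 and 0.450 in DM, or -2.56 on the log2 scale (SE 0.489, edgeR adjusted p 0.00848). WT replicate 2 was the highest library. The nearest RefSeq start of Itga9 lay 105002 bp from the deposited start, so its head window may not lie at a promoter in use. Adgrl1 had 5.00, 7.41 and 8.35 in WT against 2.54, 3.31 and 3.25 in DM (-1.22, SE 0.305, edgeR adjusted p 0.0174). Sema4c, Adgre5, Cdh2, Tspan33, Tspan13 and Cd96 were also lower, with log2 fold changes from -1.87 to -1.05 (edgeR adjusted p 0.0181 to 0.0461). Adjusted p was 0.05003 for Tspan2, just above the threshold by edgeR.

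By family, the head calls were 4 higher of 6 tested C-type lectins, 5 of 19 immunoglobulin-type receptors, both SLAM members, 4 of 12 seven-pass and purinergic members, 3 of 14 adhesion genes, 1 of 6 semaphorins and plexins and 2 of 8 other Cd antigens. Lower calls were 2 among seven-pass receptors, 3 among adhesion genes, 2 among 10 tetraspanins and MS4A genes and 1 among semaphorins. Among all genes tested 7.63% passed as higher and 9.18% as lower. Families this small were not tested against those shares, and a count of 1 or 2 cannot be told from them in most. Head and body log2 fold changes had the same sign in 74 of 78 members (94.9%) and in 2014 of 2581 genes (78.0%). In Tspan5, Plxnd1, Cd47 and Cd164 the body was higher and the head log2 fold change was between -0.16 and -0.01, with no call. All 4 had positive head values under TMM scaling (0.0560 to 0.128) and without WT replicate 2 (0.268 to 0.596), where Cd47 and Tspan5 passed as higher (edgeR adjusted p 0.0276 and 0.0483).

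**Figure D4:**
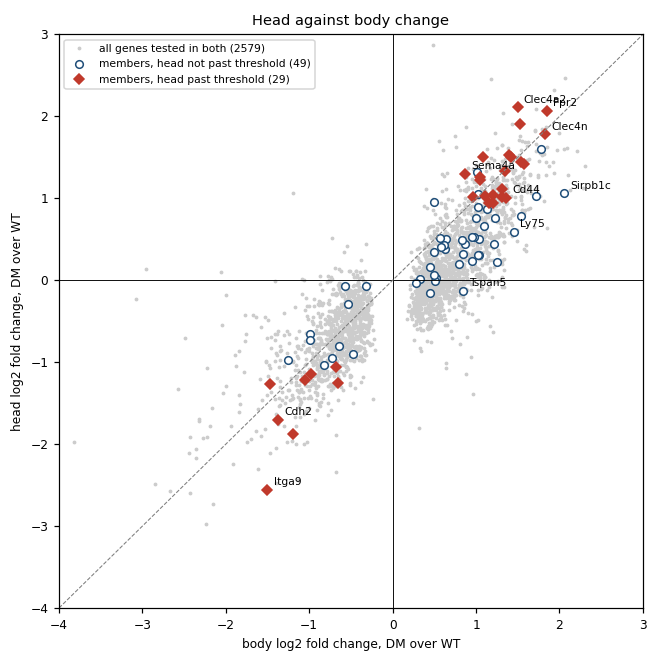
Head against body log2 fold change, DM over WT, for the 2579 genes tested in both windows (grey), for 49 members whose head was not past an edgeR adjusted p of 0.05 (open circles) and for 29 members past it (red diamonds); the dashed line marks equal change. No gene has a body value near 0 because the table was selected on the body, and the called members lie in the upper right and lower left.

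The ratio of head to body reads asks whether polymerase near the start changed out of step with the body. Its body part had chosen the rows, so the ratio is not free of that selection. The median ratio log2 fold change was -0.44 in all genes higher in body and -0.01 in those lower. In members these medians were -0.21 and -0.14. No member passed (0 of 78 by edgeR, and 0 by DESeq2), as against 2 of 2579 genes, or 0.0775%. At an unadjusted p under 0.05, 5 members had a lower ratio (Sirpb1c, Ly75, Cd9, Itgb5 and Tspan14) and none a higher one, and the smallest adjusted p was 0.261. Among all genes 349 of 2579, or 13.5%, had a lower ratio and 46 a higher one at that level, so the members' 6.41% is not above the background. Those 5 all had higher bodies. For Tspan14 the head reads per 100 body reads were 8.65, 8.79 and 10.6 in WT against 4.74, 6.60 and 5.93 in DM. For Ly75 they were 25.7, 46.7 and 20.6 in WT against 15.7, 21.0 and 15.9 in DM, with WT replicate 2 far above the other libraries. Without WT replicate 2 the ratio called 2 higher and 1 lower member. The share of all genes called in that fit is not given here, so these counts are not read further.

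Summed over members, head reads per 100 body reads were 11.4, 16.6 and 12.2 in WT against 10.0, 11.3 and 10.8 in DM. The means were 13.4 ± 2.81 and 10.7 ± 0.663 (SD, n = 3 each), a difference of -2.68. The two-sided exact permutation p was 0.1, the smallest that 3 against 3 allows. Body reads in this measure had chosen the rows, so the difference is not free of that selection. The difference was -1.07 without WT replicate 2. Over all genes the means were 17.4 ± 5.55 and 13.7 ± 0.904 (SD, n = 3 each; exact permutation p 0.3), and WT replicate 2 was the highest library there too.

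Several members are neighbours in the genome. With gaps of at most 200 kb, 24 members formed 11 groups. The members of each group had body changes in 1 direction, upward in 9 groups and downward in 2. Of all members 76.5% were higher, and the matching share for other neighbouring genes was not computed. The count of groups therefore has no background to be read against. On chromosome 6, Clec4a2, Clec4n and Clec4e lay within 166 kb with log2 fold changes of 1.498, 1.82 and 1.58, and Clec12a and Clec7a within 130 kb with 0.96 and 1.53. On chromosome 11, Cd300lb, Cd300ld and Cd300lf had 1.01, 1.72 and 1.15, so activating and inhibitory members of the cluster were higher together. On chromosome 7 the pairs C5ar2 and C5ar1, P2ry6 and P2ry2, Cd33 and Siglece, and Pirb and Lilra6 were higher. Trem1 and Trem3 on chromosome 17 and Cd302 and Ly75 on chromosome 2 were also higher. The pairs that were lower were P2rx7 and P2rx4 on chromosome 5 and Adgre5 and Adgrl1 on chromosome 8. Other table genes lay within 3 of the groups: Gm15448 at 1.34 beside Pirb and Lilra6, Zfp658 at 0.80 beside Cd33 and Siglece, and Ddx39 at -0.41 beside Adgre5. Neighbours in the Clec4, Cd300, Trem, Sirp and Pirb and Lilra families are close in sequence, and how reads matching several places were treated is not given in the sources used here, so their separate values are uncertain.

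**Figure D5:**
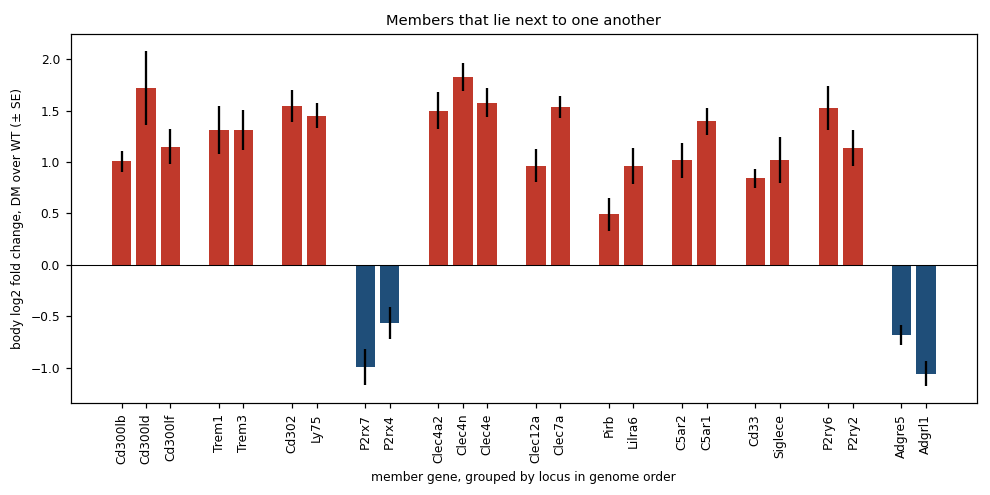
Body log2 fold change, DM over WT (y axis, bars from 0 with ± SE), for the 24 members that lie within 200 kb of another member, set side by side in genome order (x axis); red bars are higher and blue bars lower in DM. Bars within each of the 11 groups point the same way, and the matching share for other neighbouring genes was not computed.

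Genes that carry receptor signals inward were listed separately, and 19 of 42 such genes were in the table. In the body 16 were higher and 3 lower in DM, with a median log2 fold change of 0.59; of all genes 57.4% were higher and 42.6% lower. The kinases Fgr, Syk and Lyn had 1.30 (SE 0.131), 0.76 (SE 0.0983) and 0.53 (SE 0.113), and the exchange factor Vav3 had 1.27 (SE 0.118). Lower were Fermt2, an integrin activator, at -1.20 (SE 0.166), the adaptor Lat2 at -0.65 (SE 0.108) and Pik3cd at -0.52 (SE 0.114). In the head, Fgr and Vav3 passed as higher and Fermt2 as lower (edgeR adjusted p 0.0378, 0.0363 and 0.0170), counts near the 7.63% and 9.18% of all genes.

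Markers of cell types that such cultures can hold moved beside the members. Of 14 neutrophil markers listed, 4 were in the table and all 4 were higher in DM, with summed body RPM from 64.2 to 79.3 in WT and from 189 to 219 in DM. The 5 of 14 monocyte and macrophage markers in the table, 3 of which are members, were higher, at 148 to 219 and 428 to 485. The 3 of 11 dendritic markers in the table, 2 of which are members, were higher, at 39.4 to 52.8 and 85.5 to 102. The 5 of 9 mast and basophil markers in the table were lower, at 3400 to 5001 in WT and 2296 to 2404 in DM. Gata2 and Kit had the largest WT means of these 5, at 1312 and 1266 RPM. Kit is also in the stem and progenitor list below, so these 2 lists are not separate. The 3 of 9 erythroid markers in the table were lower, at 56.6 to 72.3 and 27.9 to 34.8, and Itga2b, the only one of 7 megakaryocyte markers in the table, was lower at 132 to 166 and 76.9 to 89.8. Il7r was the only one of 9 T and NK markers in the table and was higher. Of 10 stem and progenitor markers 5 were in the table; of the 4 tested, 3 were lower and 1 was higher. No B lymphoid, eosinophil or endothelial marker was in the table. Since the table holds only genes chosen for a body difference, a marker outside it has no value here. Of all genes tested 57.4% were called higher and 42.6% lower in the body. Lists with so few genes in the table were not tested against these shares. Kit, which defines the labelled cells, had 1224, 1031 and 1543 body RPM in WT against 651, 667 and 654 in DM. The part of these shifts in the changes of the members was not tested.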

How the data were processed

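One table of 6 PRO-seq libraries was used. Per the file headers, the authors deposited raw read counts for a 330 bp head window and for the body (the rest of the transcript), library totals, RPKM values, a mean signal (body counts divided by size factors), log2 fold changes, p-values and percentiles (in percent) of the head ratio. RPKM values as deposited were recomputed from counts and totals without a difference above rounding. The submitters' processing notes name mm10, dm3, cutadapt, Trimmomatic, Bowtie 1.1.2, MACS2 and bedtools 2.28, without roles; strand use and multiply mapped reads are not given in the sources used here. All rows had an adjusted p-value of at most 0.0498 in the authors' deposited table.

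One row per gene was kept, the one highest in mean body count (2744 of 3022 rows). The authors' size factors were recovered from the deposited mean signal by a linear solve. Counts were tested with edgeR 4.0.16 quasi-likelihood fits (limma 3.58.1, R 4.3.3) after filterByExpr, with Benjamini-Hochberg adjustment over all genes tested and a threshold of 0.05; the SE is the log2 fold change over the root of F. The ratio was tested as the interaction of region and group with library as a block. Values per library were compared by exact permutation tests, two-sided. The procedures were tested on simulated data with the same dispersion in every gene and in both groups. Changes of 2-fold were recovered in 98% of changed genes for bodies, 94.5% for heads and 75.5% for ratios. False calls were 13, 10 and 9. In the libraries used here WT varied more than DM, so these rates may not hold for them. DESeq2 1.42.0, TMM, library totals, other filters, a stricter threshold, all rows, the replicate block and leaving out each library were alternatives.

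Members with values are, by rule, the 6 largest body changes each way (mean of at least 50 counts, groups not overlapping), up to 12 head calls by adjusted p, the 3 highest body RPKM per family, and Tyrobp; Fcer1g was not in the table. Further members are given to complete their families. Members, families and lists were chosen with earlier results of these data known. Sequences are from RefSeq (GRCm38.p6). Proteins were not used here.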

Additional observations from a re-analysis of the deposited data

How the results depend on the processing

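Body counts of 62 higher and 19 lower members stayed within 1.5 times under every alternative run, at 55 to 62 and 14 to 19 when 1 library was left out; the body had selected the rows. In those fits 13 members missed the threshold at least once. For heads, the 21 higher calls became 37 under TMM and 4 at an adjusted p under 0.01, and 0 to 40 without 1 library. The 8 lower calls became 3 when the mean had to reach 50 counts, 1 at an adjusted p under 0.01 and 0 to 14 without 1 library. TMM raised the median head log2 fold change of all genes by 0.12. The ratio called 0 members in every alternative except without a library (0 to 2 higher, 0 to 1 lower). Head reads per 100 body reads of the members differed by -3.67 to -1.07 without 1 library. Uncalled heads changed sign in 12 members under some alternative, 5 of them under TMM; those named by rule were Cd274 (-0.0403 to 0.400 without 1 library), P2rx4 (0.0506 under TMM, -0.267 to 0.127 without 1 library) and Plxnd1 (0.0560 under TMM, 0.0241 with the replicate block, -0.518 to 0.384 without 1 library). The cause was not tested. With the replicate number as a block, 62 and 19 bodies, 29 and 12 heads and 0 ratios passed. For heads, shares of all genes called are given above only for the main fit and the fits without 1 library. The other head counts therefore have no background beside them. Deviations of same-numbered libraries correlated at -0.0855, -0.179 and 0.369 for bodies and 0.0904, -0.0443 and 0.0238 for heads. Differently numbered libraries were not compared in this way, so these values cannot decide whether the numbers pair the libraries. Cd22, Clec12a and Itga3 had too few head reads to test. Their nearest RefSeq starts lay 926, 7553 and 87 bp from the deposited starts, so the windows of Cd22 and Clec12a may miss the promoter.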
